A study of Mus musculus with 11 samples.

Results

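Collagens, laminins and nidogens were compared between the carotid body, the adrenal medulla and the superior cervical ganglion of the mouse, on 11 arrays of bulk tissue RNA. The genes were taken by name: every gene whose symbol is that of a collagen chain (Col, a type number, a and a chain number), a laminin α, β or γ chain (Lama, Lamb, Lamc) or a nidogen (Nid1, Nid2). This gave 54 of the 30142 genes tested, and they were sorted by known structure into 11 fibrillar collagens, 18 basement membrane genes (6 type IV collagen chains, 10 laminin chains and both nidogens) and 25 other collagens. The carotid body had 3 arrays, the adrenal medulla 4 and the ganglion 4. All mice were wild-type animals of the C57B6 strain, 2 months old, with no treatment named, and the pools held males and females. A carotid body array carried RNA pooled from 10 mice, and an adrenal medulla or ganglion array RNA pooled from 3 mice. The replicates are therefore pools, nothing says how animals were divided among them, and p-values measure only the spread between these pools.

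Collagens are triple helices of 3 α chains. The fibrillar types I, III and V form the tensile fibrils of connective tissue, and the type IV network and the laminin network are the sheets on which basement membranes are built, with nidogens bridging them. In peripheral nerve and ganglia, Schwann cells and satellite glia lie on a basement membrane and the surrounding sheath is rich in fibrils. In the carotid body and adrenal medulla, clusters of catecholamine-storing cells are surrounded by dense capillaries, whose endothelium and mural cells share a basement membrane.

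Values are log2 signals, and a difference of 1 is a 2-fold difference. A gene was called higher or lower where limma's moderated test, adjusted by Benjamini-Hochberg over all 30142 genes, gave a p under 0.05 and the tissue means differed by at least 2-fold. A bound for background was taken from 346 genes of families that should be silent in these tissues, at the 95th percentile of their tissue means: 5.38 in carotid body, 5.35 in adrenal medulla and 5.45 in ganglion. Folds against a tissue under its bound were computed against the bound and are written "at least". Replicates correlated at 0.9854 to 0.9923 (carotid body), 0.9944 to 0.9962 (adrenal medulla) and 0.9895 to 0.9956 (ganglion), against 0.9085 to 0.9638 between tissues. Cortical steroid genes were abundant in the arrays labelled adrenal medulla (8 measured markers, mean level 15.81 to 16.32 per array against 5.19 to 5.65 in the other tissues), so these arrays held RNA of the cortex as well. The chromaffin and glomus cell genes lay at 17.34 to 17.68 there, at 13.09 to 13.97 in the carotid body and at 13.42 to 13.90 in the ganglion, and the sympathetic neuron genes at 8.90 to 9.39, 10.80 to 12.71 and 14.61 to 15.01 in the same order.

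Every collagen or laminin gene called between the carotid body and another tissue was higher in the carotid body. Against the adrenal medulla, 18 of the 54 were called higher and 0 lower, where 6.06% of all genes tested were called higher and 4.95% lower. Against the ganglion, 20 were called higher and 0 lower, where 5.61% of all genes were higher and 8.28% lower. The median difference over the 54 genes was 0.52 against the adrenal medulla (0.05 over all genes) and 0.72 against the ganglion (-0.02 over all genes). These comparisons share the carotid body arrays and are not independent of each other. Between adrenal medulla and ganglion the genes had no common direction: 4 were called higher in the adrenal medulla and 6 lower, beside 5.72% and 7.5% of all genes, and the median difference of -0.08 was that of all genes (-0.08). Scaling moved this background. With array medians set equal, the share of called genes that were higher in the carotid body than in the adrenal medulla went from 55.1% to 44.5%, and 17 matrix genes were called higher and 0 lower. With quantile normalisation repeated over the genes tested, that share went from 40.4% to 51.2% against ganglion and from 43.3% to 53.9% for adrenal medulla over ganglion, and the matrix genes gave 22 higher and 0 lower, and 4 higher and 5 lower. In bulk tissue, fewer cells of a type and less RNA per cell cannot be told apart.

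Of the 54 genes, 41 lay above the background bound in at least 1 tissue, 40 in carotid body, 33 in adrenal medulla and 32 in ganglion. The carotid body had the highest mean for 36 of the 41 and the lowest for 0. The adrenal medulla had the lowest mean for 23 and the ganglion for 18. The 13 genes under the bound everywhere were Col11a2, Col24a1, Col4a6, Lamb3, Col8a2, Col17a1, Col19a1, Col22a1, Col25a1, Col26a1 and the 3 type IX chains Col9a1, Col9a2 and Col9a3, which are cartilage collagens. These genes were not above background, and the size of a difference between tissues could not be judged. Among them, Col4a6 read higher in carotid body, by 0.67 against adrenal medulla and 0.56 against ganglion (limma adjusted p = 7.8e-05 and 0.000205). Both differences were under 2-fold.

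**Figure D1:**
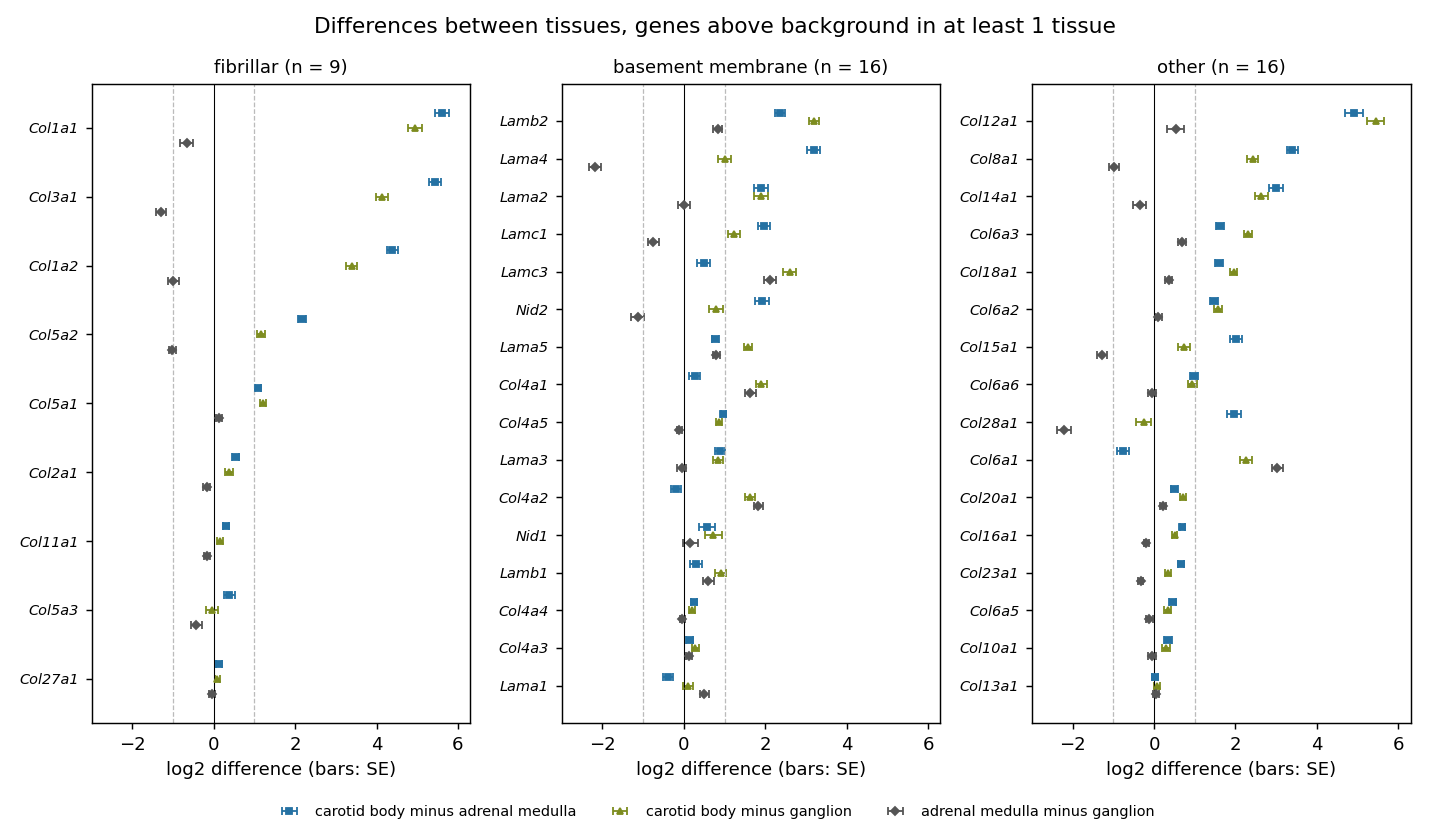
Differences in log2 signal between tissues for the 41 genes above background in at least 1 tissue, by class, with 1 gene per row. Each marker is a limma estimate, its bar is the standard error, and the dashed lines mark a 2-fold difference. Blue squares (carotid body minus adrenal medulla) and green triangles (carotid body minus ganglion) lie mostly to the right of 0, up to 5.61 for Col1a1, and grey diamonds (adrenal medulla minus ganglion) lie on both sides, from -2.21 for Col28a1 to 3.03 for Col6a1.

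In each class the median signal of the carotid body arrays was above that of all other arrays. Among the fibrillar collagens, 5 of 11 were called higher than in adrenal medulla and 5 higher than in ganglion (median differences 0.54 and 0.37). Among the basement membrane genes the counts were 5 and 8 of 18 (0.62 and 0.88), and among the other collagens 8 and 7 of 25 (0.46 and 0.34). These medians include genes under the bound in every tissue, 2 fibrillar, 2 basement membrane and 9 other. Without them the medians were 1.08 and 1.16 for fibrillar genes and 1.23 and 0.84 for other collagens. Those of the basement membrane genes moved by less than their spread between pools. The medians over all members therefore do not rank the classes. Between adrenal medulla and ganglion, 0 fibrillar genes were higher and 2 lower (median -0.17), 3 basement membrane genes were higher and 2 lower (0.07), and 1 other collagen gene was higher and 2 lower (-0.08). Over all genes, 6.06% were called higher in the carotid body than in the adrenal medulla and 5.61% higher than in ganglion (medians 0.05 and -0.02). Between adrenal medulla and ganglion 5.72% of all genes were higher and 7.5% lower (median -0.08), and the other collagens lay near this. A value was also formed for each array, the median over the genes of a class of the log2 signal minus the mean of the 3 tissue means. For fibrillar genes it was 0.22, 0.51 and 0.21 on the carotid body arrays, -0.29 to -0.21 on the adrenal medulla arrays and -0.12 to -0.03 on the ganglion arrays. For basement membrane genes it was 0.92, 0.54 and 0.49 in carotid body, -0.15 to -0.09 in adrenal medulla and -0.30 to -0.23 in ganglion. Carotid body replicate 1 stood above the other pools of its tissue here and held the highest carotid body value for 11 of the 18 genes. Without it, 6 basement membrane genes were called higher than in adrenal medulla and 7 higher than in ganglion, with 0 lower (medians 0.49 and 0.83). Levels of cell markers also differed between the carotid body pools, not always with replicate 1 apart. The mean of 8 sympathetic neuron genes was 12.71 on carotid body replicate 1, 10.80 on replicate 2 and 11.79 on replicate 3. In the same order, that of 6 macrophage genes was 8.14, 8.80 and 8.83, and that of 6 fibroblast genes 10.63, 11.19 and 11.28. For 6 Schwann cell and satellite glia genes it was 11.30, 10.94 and 10.93, and for 8 endothelial genes 10.88, 10.81 and 10.78. The part of these cells in the replicate's values was not tested. For the other collagens the carotid body arrays lay at 0.36, 0.29 and 0.38, the adrenal medulla arrays at -0.16 to -0.12 and the ganglion arrays at -0.11 to 0.05. In no class did a carotid body array overlap an array of another tissue.

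**Figure D2:**
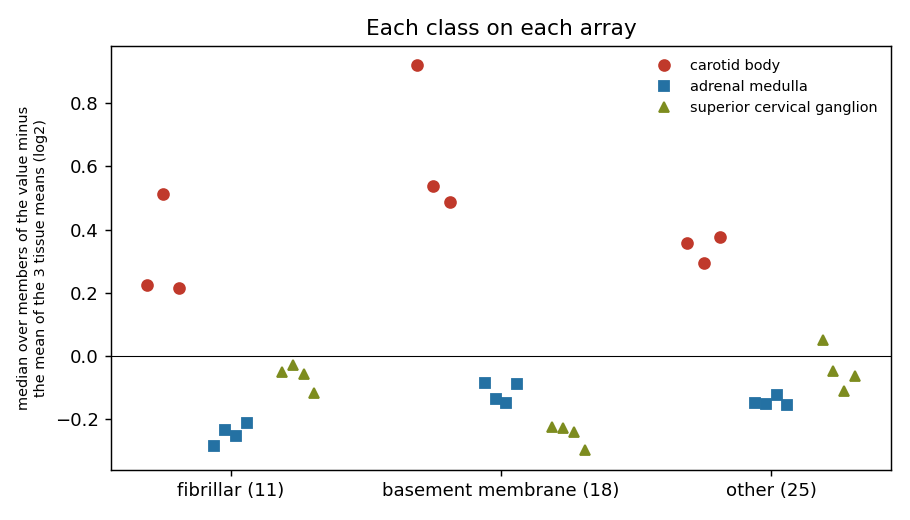
One point per array for each class of genes (number of genes in brackets). The vertical axis is the median over the genes of the log2 signal minus the mean of the 3 tissue means. Carotid body arrays (red circles) lie between 0.21 and 0.92, above all adrenal medulla (blue squares) and ganglion (green triangles) arrays.

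The genes of type I and type III collagen, the chief fibrils of connective tissue, had some of the widest differences. Col1a1, the α1 chain of type I, read 14.43, 14.02 and 14.09 in carotid body, 8.46, 8.72, 8.55 and 8.55 in adrenal medulla, and 9.28, 9.25, 8.80 and 9.63 in ganglion. The carotid body arrays stood apart from all others, and the ganglion arrays lay above the adrenal medulla arrays by a much smaller step. The level was 48.8-fold higher in the carotid body than in the adrenal medulla (log2 difference 5.61, SE 0.17, limma adjusted p = 3.2e-09) and 30.7-fold higher than in ganglion (4.94, SE 0.17, adjusted p = 1.8e-08). Between adrenal medulla and ganglion it differed by -0.67, short of a 2-fold difference.

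The partner chain of type I, Col1a2, read 13.62, 13.05 and 13.11 in carotid body, 8.68, 9.01, 8.97 and 8.85 in adrenal medulla, and 9.93, 9.78, 9.78 and 9.97 in ganglion. Its order of tissues was the same, with no overlap between any pair of tissues. Such separation is common on so few arrays. Over all genes, 19.2% lay wholly higher and 19.0% wholly lower in the carotid body than in the adrenal medulla. These shares were 14.8% and 21.1% against ganglion, and 16.7% and 20.2% for adrenal medulla against ganglion. Col1a2 was 20.9-fold higher in the carotid body than in the adrenal medulla and 10.5-fold higher than in ganglion. Col3a1, whose product is the homotrimeric type III collagen of distensible tissues such as vessel walls, read 13.56, 13.40 and 13.73 in carotid body, 7.92, 8.39, 8.10 and 8.08 in adrenal medulla, and 9.53, 9.33, 9.18 and 9.64 in ganglion. It was 43.4-fold higher in the carotid body than in the adrenal medulla (5.44, SE 0.14, limma adjusted p = 8.46e-10), 17.6-fold higher than in ganglion, and 2.46-fold lower in adrenal medulla than in ganglion. Again the 3 tissues did not overlap.

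Type V chains, which join type I fibrils and limit their thickness, had smaller differences. Col5a1 read 6.80, 6.95 and 7.03 in carotid body, 5.88, 5.82, 5.79 and 5.89 in adrenal medulla, and 5.81, 5.73, 5.64 and 5.69 in ganglion. It was 2.12-fold higher in the carotid body than in the adrenal medulla and 2.31-fold higher than in ganglion, while adrenal medulla and ganglion overlapped. With array medians set equal, the first of these differences was 0.93 and lost its call. Col5a2 read 8.11, 8.13 and 7.93 in carotid body, 5.81, 5.96, 5.92 and 5.83 in adrenal medulla, and 6.77, 6.92, 7.12 and 6.77 in ganglion. The 3 tissues were apart, with a level in carotid body 4.52-fold that of adrenal medulla and 2.24-fold that of ganglion, and a level 2.02-fold lower in adrenal medulla than in ganglion. The last call lay at the threshold and was lost under 5 alternatives (-0.999 to -0.93), among them without adrenal medulla replicate 1 or 4 or ganglion replicate 3. Col5a3 was not called in any comparison. The carotid body arrays lay at 6.81 to 6.90, inside the ganglion range of 6.63 to 7.26, and the adrenal medulla arrays at 6.27 to 6.57. The cartilage collagen genes Col2a1 and Col11a1 and the gene Col27a1 were close to background (5.02 to 6.29) and were not called anywhere.

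**Figure D3:**
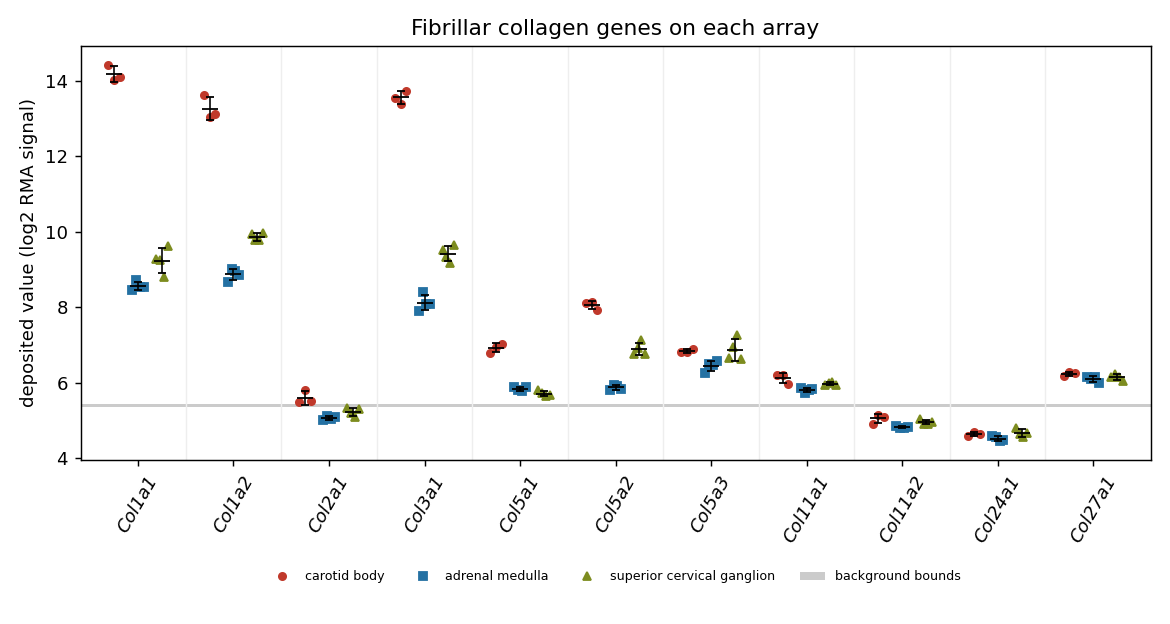
Log2 signal of fibrillar collagen genes on each of the 11 arrays (1 point per array), with the mean and SD of each tissue as a bar and the background bounds in grey. Col1a1, Col1a2 and Col3a1 lie between 13.05 and 14.43 on carotid body arrays and between 7.92 and 9.97 on the others.

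The upstream sequence is shown for Col3a1 and Col1a2, as fibrillar genes whose tissues did not overlap, and for Lamb2, the basement membrane gene with the widest difference to the ganglion. These are the 250 bases before the annotated start in RefSeq (GRCm38.p6, 5′ to 3′ on the gene's strand), at chr1:45311288-45311537, chr6:4505368-4505617 and chr9:108479612-108479861, all on the plus strand. Capitals mark matches to TATAAA (the TATA box), CCAAT (the CCAAT box) or GGGCGG (the GC box), searched on both strands.
Col3a1: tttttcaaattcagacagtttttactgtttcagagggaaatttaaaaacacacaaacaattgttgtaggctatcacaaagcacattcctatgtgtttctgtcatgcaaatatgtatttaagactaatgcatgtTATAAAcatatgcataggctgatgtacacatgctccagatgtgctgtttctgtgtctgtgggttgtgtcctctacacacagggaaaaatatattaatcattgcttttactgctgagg
Col1a2: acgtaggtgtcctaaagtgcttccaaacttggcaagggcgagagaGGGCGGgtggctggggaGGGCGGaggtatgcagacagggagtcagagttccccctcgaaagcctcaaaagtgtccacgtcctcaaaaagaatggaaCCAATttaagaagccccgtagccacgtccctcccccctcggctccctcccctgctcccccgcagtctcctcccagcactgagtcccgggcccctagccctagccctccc
Lamb2: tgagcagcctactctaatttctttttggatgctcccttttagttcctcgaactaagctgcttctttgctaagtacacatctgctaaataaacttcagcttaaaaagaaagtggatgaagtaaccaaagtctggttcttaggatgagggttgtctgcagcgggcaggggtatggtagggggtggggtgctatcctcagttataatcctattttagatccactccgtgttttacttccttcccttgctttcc
The Col3a1 window holds a TATAAA that starts 117 bases before the start. The Col1a2 window holds a CCAAT 109 bases before the start and a pair of GGGCGG, the nearer 188 bases before it. None of these letters is in the Lamb2 window. RefSeq windows were matched for 39 of the 54 genes, with 43 windows in all. TATAAA was in 5 of these (11.6%, against 12.4% of all 32851 windows), CCAAT in 13 (30.2%, against 33.8%) and GGGCGG in 23 (53.5%, against 32.7%). By class GGGCGG was in 6 of 8 fibrillar windows, 6 of 12 basement membrane windows and 11 of 23 windows of other collagens. These matches describe the sequence only.

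Basement membrane genes did not share a single order of tissues. The main type IV collagen genes, Col4a1 and Col4a2, whose chains assemble together in nearly every basement membrane, were low in the ganglion. Col4a1 read 9.15, 8.78 and 8.75 in carotid body, 8.47, 8.47, 8.63 and 8.95 in adrenal medulla, and 6.90, 6.89, 7.12 and 7.07 in ganglion. Carotid body and adrenal medulla overlapped (0.27, SE 0.14, limma adjusted p = 0.187), and the level was 3.73-fold higher in carotid body and 3.1-fold higher in adrenal medulla than in ganglion. Col4a2 read 9.23, 8.80 and 8.91 in carotid body, 9.03, 9.10, 9.19 and 9.41 in adrenal medulla, and 7.40, 7.39, 7.23 and 7.38 in ganglion. It showed the same pattern, with 3.09-fold for carotid body over ganglion, 3.56-fold for adrenal medulla over ganglion, and -0.20 between carotid body and adrenal medulla (SE 0.12, adjusted p = 0.246). The genes lie head to head on opposite strands, and their annotated starts in RefSeq lie 21 bases apart.

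The minor type IV chains were near background. Col4a5, a chain of the kidney and smooth muscle basement membranes, read 5.81, 6.01 and 5.80 in carotid body, 4.96, 4.88, 4.86 and 4.90 in adrenal medulla, and 5.06, 5.01, 4.94 and 5.05 in ganglion. It was above the bound on every carotid body array and under it on every other array, and its difference of 0.97 to adrenal medulla and 0.86 to ganglion fell short of the 2-fold threshold, at at least 1.44-fold and at least 1.34-fold higher against the bounds. Col4a3 and Col4a4 lay between 5.01 and 5.70 and were not called. Col4a6, given above, was under the bound on every array and was not called.

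Laminin α chains give a laminin its cell-binding end. Lama2, the α chain of muscle and Schwann cell laminin, read 11.74, 11.81 and 11.79 in carotid body, 9.78, 9.67, 10.03 and 10.06 in adrenal medulla, and 9.46, 9.82, 10.27 and 9.99 in ganglion. All carotid body arrays lay above the rest, by 3.71-fold over adrenal medulla and 3.71-fold over ganglion, and adrenal medulla and ganglion overlapped (difference 0.00, SE 0.16). Lama4, the α chain of endothelial and early nerve basement membranes, read 10.70, 10.66 and 10.46 in carotid body, 7.33, 7.14, 7.53 and 7.67 in adrenal medulla, and 9.44, 9.77, 9.89 and 9.33 in ganglion. The adrenal medulla lay far below both other tissues, 9.13-fold under carotid body and 4.57-fold under ganglion. Its difference of 1.00 between carotid body and ganglion (SE 0.16, limma adjusted p = 0.000531) lay at the 2-fold threshold and lost its call under 7 of 19 alternatives (0.88 to 1.00), among them without carotid body replicate 1 or 2 or ganglion replicate 1 or 4. Lama5, an α chain of epithelial and vascular basement membranes, read 7.54, 7.32 and 7.34 in carotid body, 6.85, 6.53, 6.53 and 6.59 in adrenal medulla, and 5.87, 5.85, 5.81 and 5.78 in ganglion. The tissues were in the order carotid body, adrenal medulla, ganglion with no overlap, and the difference of carotid body to ganglion was called (1.58, 2.98-fold). Those of carotid body to adrenal medulla (0.78) and adrenal medulla to ganglion (0.80) were under 2-fold. Lama3, of epithelial laminin, gave log2 differences of 0.89 (carotid body minus adrenal medulla) and 0.83 (carotid body minus ganglion), under the 2-fold threshold. Lama1, of early embryonic and kidney basement membranes, had its highest mean in adrenal medulla (5.45 ± 0.24, SD, n = 4), near the bound, and was not called.

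Of the β chains, Lamb2, of the neuromuscular junction and mature vessels, read 11.91, 11.62 and 11.43 in carotid body, 9.24, 9.24, 9.24 and 9.47 in adrenal medulla, and 8.26, 8.59, 8.58 and 8.43 in ganglion. The tissues did not overlap, and the level in carotid body was 5.13-fold that of adrenal medulla and 9.14-fold that of ganglion (3.19, SE 0.13, limma adjusted p = 3.75e-08). Lamb1, the more widespread β chain, read 10.24, 9.83 and 9.89 in carotid body, 9.66, 9.47, 9.55 and 10.05 in adrenal medulla, and 9.10, 9.15, 9.11 and 8.99 in ganglion. Carotid body and adrenal medulla overlapped (0.30), the ganglion was lowest (0.90 and 0.60), and no difference reached 2-fold.

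Of the γ chains, Lamc1, shared by most laminins, read 12.19, 11.71 and 11.71 in carotid body, 9.89, 9.63, 9.86 and 10.20 in adrenal medulla, and 10.62, 10.58, 10.70 and 10.68 in ganglion. It was 3.94-fold higher in the carotid body than in the adrenal medulla and 2.33-fold higher than in ganglion, and here the adrenal medulla was lowest. Lamc3, a γ chain with a narrower distribution, read 8.98, 8.29 and 8.31 in carotid body, 8.11, 7.83, 8.24 and 7.96 in adrenal medulla, and 5.94, 5.99, 5.91 and 5.84 in ganglion. The ganglion stood apart at the low end, 6.08-fold under carotid body and 4.34-fold under adrenal medulla, while carotid body and adrenal medulla were 0.49 apart and not called.

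The nidogens link laminin to type IV collagen. Nid1 read 13.07, 12.20 and 12.17 in carotid body, 11.94, 11.90, 11.86 and 11.94 in adrenal medulla, and 11.64, 11.94, 11.94 and 11.51 in ganglion. Carotid body replicate 1 was the highest array, and all carotid body arrays lay above those of the other tissues. No comparison was called, as the carotid body differences were under 2-fold (0.57, SE 0.20, to adrenal medulla and 0.72, SE 0.20, to ganglion). Nid2 read 9.34, 8.54 and 8.86 in carotid body, 7.21, 6.89, 6.89 and 6.98 in adrenal medulla, and 7.99, 8.34, 8.17 and 7.99 in ganglion. It was 3.79-fold higher in the carotid body than in the adrenal medulla and 2.19-fold lower in adrenal medulla than in ganglion. Carotid body and ganglion were 0.79 apart, short of 2-fold.

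The basement membrane genes called between adrenal medulla and ganglion thus ran both ways. Col4a1, Col4a2 and Lamc3 were higher in adrenal medulla, and Lama4 and Nid2 were higher in ganglion. Endothelial markers were high where the former were high: the mean level of 8 such genes was 10.78 to 10.88 on carotid body arrays, 11.01 to 11.44 on adrenal medulla arrays and 7.30 to 7.60 on ganglion arrays, with 8 of 8 called higher in adrenal medulla than in ganglion and 8 of 8 higher in the carotid body than in ganglion. Between carotid body and adrenal medulla 2 were higher and 3 lower. Between adrenal medulla and ganglion, Schwann cell and satellite glia markers ran as the latter did. The mean of 6 measured genes was 10.93 to 11.30 in carotid body, 8.13 to 8.42 in adrenal medulla and 10.93 to 11.72 in ganglion, with 6 of 6 called lower in adrenal medulla than in ganglion. Against ganglion, 0 were higher and 2 lower in carotid body, where Lama4 and Nid2 had their highest means. Other markers also differed between adrenal medulla and ganglion. Those of cortex (8 of 8) and mural cells (5 of 8) were higher in adrenal medulla, and of 6 fibroblast markers 1 was higher and 3 lower. The part of these cells in the chains' differences was not tested.

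**Figure D4:**
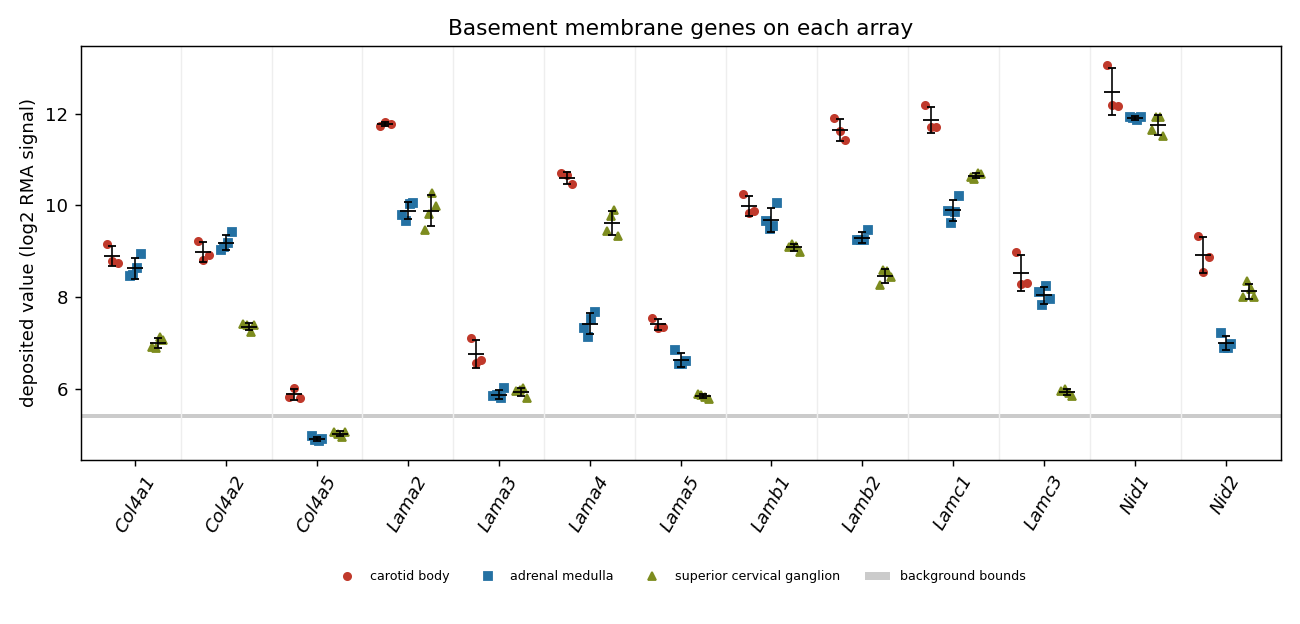
Log2 signal of type IV collagen, laminin and nidogen genes on each array (1 point per array), with the mean and SD of each tissue as a bar and the background bounds in grey. Col4a1, Col4a2 and Lamc3 are low on ganglion arrays (5.84 to 7.40), and Lama4 is lowest on adrenal medulla arrays (7.14 to 7.67).

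Outside both classes, type VI collagen forms beaded filaments next to basement membranes from an α1, an α2 and an α3 chain. Col6a1 had its highest mean in adrenal medulla, and Col6a2 and Col6a3 had theirs in carotid body. Col6a1 read 10.39, 10.39 and 10.39 in carotid body, 11.005, 11.41, 10.88 and 11.36 in adrenal medulla, and 8.28, 8.09, 7.85 and 8.31 in ganglion. The adrenal medulla was highest, 8.18-fold over ganglion (3.03, SE 0.14, limma adjusted p = 2.61e-08), and carotid body was 4.78-fold over ganglion. Between carotid body and adrenal medulla the difference was -0.77 (SE 0.15, adjusted p = 0.00218), with no overlap but under 2-fold. The deposited value was the same on all 3 carotid body arrays, so the SD there is 0.

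Col6a2 read 8.24, 8.38 and 8.48 in carotid body, 6.93, 6.91, 6.91 and 6.83 in adrenal medulla, and 6.95, 6.71, 6.65 and 6.86 in ganglion. Here the carotid body was highest, 2.77-fold over adrenal medulla and 2.98-fold over ganglion, and adrenal medulla and ganglion overlapped. Col6a3 read 9.91, 9.49 and 9.58 in carotid body, 8.06, 8.06, 8.003 and 8.06 in adrenal medulla, and 7.41, 7.35, 7.27 and 7.40 in ganglion. It was 3.07-fold higher in the carotid body than in the adrenal medulla and 4.94-fold higher than in ganglion, with the adrenal medulla above the ganglion by 0.68, not called. Whether the chains differ from each other in their tissue pattern was not tested. Col6a6, an alternative to the α3 chain, gave 0.98 for carotid body minus adrenal medulla and 0.94 for carotid body minus ganglion, under 2-fold and near background, and the related Col6a5 lay between 5.07 and 5.70 and was not called.

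The FACIT collagens sit on the surface of fibrils. Col12a1, found in tendon, fascia and the sheaths of muscle and nerve, read 12.74, 11.90 and 11.81 in carotid body, 7.15, 6.95, 7.36 and 7.46 in adrenal medulla, and 6.74, 6.50, 6.63 and 6.94 in ganglion. Its carotid body arrays stood above all others, 30.2-fold over adrenal medulla and 43.6-fold over ganglion (5.45, SE 0.21, limma adjusted p = 3.92e-08). Its carotid body SD was 0.51 (n = 3), with replicate 1 the highest. Col14a1, its close relative, read 12.68, 11.91 and 11.999 in carotid body, 9.04, 9.21, 9.38 and 9.17 in adrenal medulla, and 9.62, 9.63, 9.61 and 9.37 in ganglion. It was 7.97-fold higher in the carotid body than in the adrenal medulla and 6.22-fold higher than in ganglion. Adrenal medulla and ganglion overlapped for it and differed by 0.53 for Col12a1, not called. Col16a1 and Col20a1, of the same subclass, lay between 5.82 and 6.73 and were not called.

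Col8a1, of the network-forming type VIII collagen of vessel walls and the corneal endothelium, read 8.20, 8.57 and 8.75 in carotid body, 4.99, 4.94, 5.26 and 5.22 in adrenal medulla, and 6.04, 6.21, 6.04 and 6.04 in ganglion. It was under the bound in adrenal medulla, above it in ganglion and highest in carotid body, at least 8.91-fold higher than in adrenal medulla and 5.36-fold higher than in ganglion. Col10a1, the hypertrophic cartilage collagen, was near background. The multiplexins Col15a1 and Col18a1 are basement membrane zone collagens, and type XVIII is the source of endostatin. Col15a1 read 9.83, 9.29 and 9.29 in carotid body, 7.48, 7.37, 7.46 and 7.52 in adrenal medulla, and 8.81, 8.44, 8.80 and 8.89 in ganglion. Adrenal medulla was lowest, 4.04-fold under carotid body and 2.43-fold under ganglion, and carotid body and ganglion were 0.73 apart, not called. Col18a1 read 8.43, 8.35 and 8.08 in carotid body, 6.72, 6.62, 6.72 and 6.72 in adrenal medulla, and 6.42, 6.28, 6.21 and 6.42 in ganglion. It was 3.02-fold and 3.88-fold higher in the carotid body than in the adrenal medulla and ganglion.

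Col28a1 and Col5a3 were the genes above background whose mean was highest in ganglion, and for both the ganglion overlapped the carotid body. The product of Col28a1, type XXVIII collagen, is found around glia of peripheral nerve in the mouse. Its gene read 9.29, 8.89 and 8.89 in carotid body, 7.12, 7.04, 7.12 and 6.97 in adrenal medulla, and 9.03, 9.58, 9.59 and 8.91 in ganglion. Carotid body and ganglion overlapped (-0.26, SE 0.18, limma adjusted p = 0.313), and adrenal medulla lay apart, 3.88-fold under carotid body and 4.64-fold under ganglion. The Schwann cell and satellite glia markers given above were likewise low on the adrenal medulla arrays. Their part in the result was not tested. The transmembrane collagen genes Col13a1 and Col23a1 lay between 5.26 and 6.37, and neither was called.

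**Figure D5:**
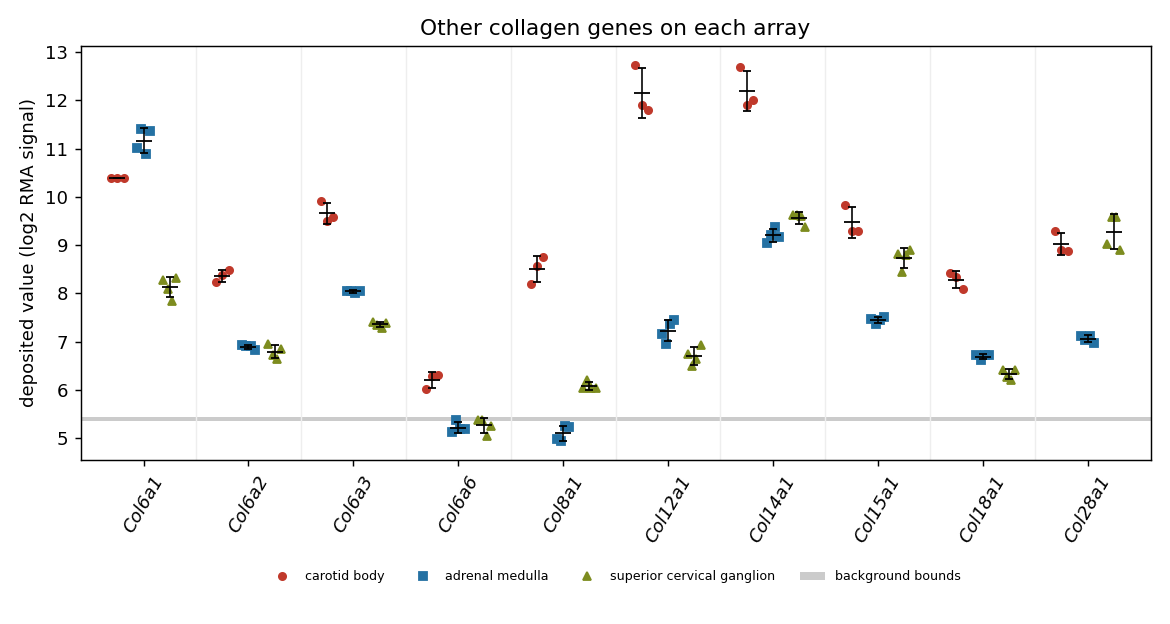
Log2 signal of collagen genes outside the fibrillar and type IV groups on each array (1 point per array), with the mean and SD of each tissue as a bar and the background bounds in grey. Col12a1 and Col14a1 lie between 11.81 and 12.74 on carotid body arrays, Col6a1 is highest on adrenal medulla arrays (10.88 to 11.41), and Col28a1 is low only on adrenal medulla arrays (6.97 to 7.12).

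Of 15 measured genes for proteins that bind or accompany fibrils, 12 were called higher in the carotid body than in the adrenal medulla and 12 higher than in ganglion, with 0 lower (median differences 2.03 and 2.23). Over all genes, 6.06% were called higher and 4.95% lower in the carotid body than in the adrenal medulla, with a median of 0.05. Against ganglion these were 5.61%, 8.28% and -0.02, and for adrenal medulla against ganglion 5.72%, 7.5% and -0.08. These values stand beside the counts of every list and set of cell markers. A count of 1 among 15 genes is near such shares. Fn1, for fibronectin, was 59.2-fold higher in the carotid body than in the adrenal medulla and 14.1-fold higher than in ganglion. The small leucine-rich proteoglycans lumican and decorin, which space fibrils, followed: Lum was 39.3-fold and Dcn 30.5-fold higher than in adrenal medulla. Over ganglion, Ogn (osteoglycin) was 21.3-fold and Eln (elastin) 14.7-fold higher. Between adrenal medulla and ganglion 5 were higher and 5 lower (median -0.09), among them Dcn (8.96-fold lower in adrenal medulla), Lum (8.38-fold lower) and Bgn, for biglycan (5.27-fold higher).

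Of 22 measured genes for the modification, folding and cleavage of collagen, 3 were higher and 3 lower in the carotid body than in the adrenal medulla, 7 higher and 1 lower than in ganglion, and 10 higher and 1 lower in adrenal medulla than in ganglion (median differences -0.29, 0.56 and 0.55, where all genes had 0.05, -0.02 and -0.08). Pcolce2, an enhancer of the C-terminal propeptide cleavage, was at least 33.2-fold higher in the carotid body than in the adrenal medulla and 22.3-fold higher than in ganglion. Its paralogue Pcolce was lower in the carotid body than in the adrenal medulla (log2 difference -1.25), 3.88-fold higher in the carotid body than in ganglion and 9.23-fold higher in adrenal medulla than in ganglion. Plod2, a lysyl hydroxylase of collagen telopeptides, was 8.05-fold lower in the carotid body than in the adrenal medulla, and 7.96-fold higher in adrenal medulla than in ganglion. P4ha3, a prolyl 4-hydroxylase subunit, was highest in ganglion, 3.97-fold over carotid body and 9.13-fold over adrenal medulla.

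Among 6 measured crosslinking enzymes, Lox (lysyl oxidase) was 3.71-fold higher in the carotid body than in the adrenal medulla and 7.35-fold higher than in ganglion. Loxl1 was 16.3-fold higher in carotid body and 9.06-fold higher in adrenal medulla than in ganglion. Tgm2, a transglutaminase, followed with 2.23-fold and 2.12-fold. In this list 1 gene was called higher than in adrenal medulla, 3 higher than in ganglion and 2 higher in adrenal medulla than in ganglion, with 0 lower in each (medians 0.56, 0.85 and 0.44).

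Of 15 measured genes for partners of the basement membrane, 7 were higher and 1 lower in the carotid body than in the adrenal medulla, 7 higher and 1 lower than in ganglion, and 3 higher and 4 lower in adrenal medulla than in ganglion (medians 0.52, 0.56 and -0.46). Ntn4, a laminin-related netrin that binds laminin networks, was 28.8-fold higher in the carotid body than in the adrenal medulla and 11.03-fold higher than in ganglion. Npnt (nephronectin) was 12.2-fold and at least 11.6-fold higher against the same tissues, and Hspg2 (perlecan) was 6.46-fold higher in the carotid body than in ganglion. The ganglion mean of Npnt (5.58) was above the bound, as were 3 of its arrays. Smoc1 and Smoc2, a pair of related calcium-binding proteins, had opposite patterns: Smoc1 was 12.3-fold higher in adrenal medulla than in ganglion and Smoc2 5.99-fold lower. Tinagl1 was 5.91-fold higher in adrenal medulla than in ganglion.

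Of 16 measured receptors for collagen and laminin, 6 were higher and 0 lower in the carotid body than in the adrenal medulla, and 2 were higher and 7 lower in adrenal medulla than in ganglion. Against ganglion, 3 were higher and 2 lower in carotid body. The median difference of carotid body was 0.36 to adrenal medulla and 0.07 to ganglion, and that of adrenal medulla to ganglion -0.14. Itgb4, the integrin β4 chain of hemidesmosomes and Schwann cells, was 18.6-fold higher in the carotid body than in the adrenal medulla and 4.37-fold higher than in ganglion. Adgrg6, the adhesion receptor of Schwann cell myelination, was 6.99-fold higher in the carotid body than in the adrenal medulla and 11.6-fold lower in adrenal medulla than in ganglion. Bcam, a receptor of laminin α5, was 5.93-fold higher in the carotid body than in the adrenal medulla and 15.8-fold lower in adrenal medulla than in ganglion, and Itga7, a laminin-binding integrin chain, 9.04-fold lower. The fibrillar collagen receptor Ddr2 was 4.17-fold higher in the carotid body than in ganglion, and Itga3 4.56-fold lower.

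Among 15 measured genes for breakdown and its inhibitors, 5 were higher and 2 lower in the carotid body than in the adrenal medulla, 3 higher and 1 lower than in ganglion, and 3 higher and 2 lower in adrenal medulla than in ganglion (medians 0.80, 0.62 and -0.12). The 1 gene lower in the carotid body than in ganglion is near the share of all genes (8.28%). Mmp2, a gelatinase, was 30.2-fold higher in the carotid body than in the adrenal medulla, but 2.55-fold lower than in ganglion, so that adrenal medulla and ganglion were 77.1-fold apart. Mmp19 was highest in adrenal medulla (5.95-fold over carotid body and 9.13-fold over ganglion). Reck, a membrane-anchored inhibitor of these proteases, was 6.93-fold higher in carotid body and 3.35-fold higher in adrenal medulla than in ganglion, and Timp3 was 3.01-fold higher in the carotid body than in ganglion. Mmp13 was above background only in adrenal medulla (at least 2.2-fold over carotid body).

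Fibroblast, mural cell and adipocyte markers were also higher in carotid body. The mean level of 6 measured fibroblast markers, among them Lum, was 10.63 to 11.28 on carotid body arrays, 7.06 to 7.31 on adrenal medulla arrays and 7.90 to 8.27 on ganglion arrays, and 5 of the 6 were called higher in the carotid body than in each other tissue. Pi16 and Clec3b were under the bound in adrenal medulla, as was Clec3b in ganglion. Mural cell markers lay at 12.44 to 12.96, 9.20 to 9.35 and 7.56 to 7.83 in the same order of tissues, with 7 and 8 of 8 called higher in the carotid body than in the adrenal medulla and in ganglion. Adipocyte markers lay at 9.16 to 9.89, 6.04 to 6.17 and 6.38 to 6.71, with 5 of 6 called higher in carotid body in each comparison. Adipoq, Lep and Cidec were under the bound in adrenal medulla, and Lep was under it in every tissue. Macrophage markers lay at 8.14 to 8.83, 8.57 to 8.80 and 7.73 to 8.44, with 0 of 6 called higher and 1 lower in the carotid body than in the adrenal medulla, and 0 called in either direction between carotid body and ganglion. The part of fibroblasts, mural cells, adipocytes and macrophages in the collagen and laminin differences was not tested.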

How the data were processed

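Total RNA of 11 pools (3 carotid body, 4 adrenal medulla, 4 superior cervical ganglion) went on mouse transcriptome arrays of Affymetrix, per the labels' protocols. The authors deposited log2 values from RMA (background correction, quantile normalisation and summary of probes). Per the submitters' processing notes, this was run in Affymetrix Expression Console, whose version is not given in the sources used here. Base 2 is that of RMA. Some genes lay above 16, so a later rescaling is possible, and folds are on the deposited scale. RMA and the sharing of values can narrow the spread: 21 of the 54 genes (38.9%), and 34.5% of all genes, had the same deposited value on 3 or more arrays, so SDs may be too small. The number of arrays limits the precision.

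Of 72688 features, 65956 were transcript clusters. Names came from the platform annotation, in which 30604 clusters have 1 symbol, 2146 several and 33206 none, and 819 symbols were updated through a RefSeq table (GRCm38.p6). The brightest cluster of a gene, by its mean over 11 arrays, was used, which left 30142 genes. A pair of clusters of these families carry several symbols and were left out, and genes of these families without a singly named cluster were not analysed here. No gene of the 54 had a further cluster or shared all its values with another gene. No dim gene was removed.

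A single limma fit with tissue as the only factor (lmFit and eBayes, limma 3.58.1, R 4.3.3) used all 11 arrays, and was tested on simulated data. The genes and lists were chosen with earlier results of these data known, so no list was tested and lists are described by counts and medians. Values per array are given for a fixed set of well-known members and for up to 5 called members per class, tissue pair and direction with the largest difference. From the lists of processing, crosslinking, partner, receptor and breakdown genes, up to 3 called genes per tissue pair are named, by size of difference. Alternatives tried were array weights, the variance trend, median centring, repeated quantile normalisation, the removal of dim genes, the mean of a gene's clusters, all transcript clusters in the adjustment, the replicate number as a block and leaving out each array in turn.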

Additional observations from a re-analysis of the deposited data

Results flagged for a closer look

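A single array lay far from the other pools of its tissue (Dixon's test at its 95% critical value) in 7 of the 65 groups of 4 arrays considered, which were limited to genes above the background bound. Col13a1 in adrenal medulla and Col16a1 in ganglion, with the same value on all arrays, are among the 65 but could not be flagged. Chance gives about 1 in 20 where values are not tied. In ganglion, replicate 3 read 7.23 for Col4a2 (others 7.38 to 7.40), replicate 4 read 9.37 for Col14a1 (others 9.61 to 9.63), replicate 2 read 6.21 for Col8a1 (others all 6.04) and replicate 1 read 6.15 for Col23a1 (others 5.93 to 5.96). In adrenal medulla, replicate 4 read 9.47 for Lamb2 (others all 9.24), replicate 3 read 8.003 for Col6a3 (others all 8.06) and replicate 2 read 6.62 for Col18a1 (others all 6.72). In 4 of these the other arrays share 1 deposited value, so a small step was enough and the rate of 1 in 20 does not apply. The carotid body groups, of 3 arrays, were not examined.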

How the results depend on the processing

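Of the 48 calls among the 54 genes and 3 comparisons, 45 kept their direction and call under all 19 alternatives, 3 were lost under some and 0 reversed. Lost were Col5a1 in carotid body over adrenal medulla (0.93 with array medians set equal), Col5a2 in adrenal medulla minus ganglion and Lama4 in carotid body over ganglion (ranges given above). Gained under some were Col1a2 in adrenal medulla minus ganglion (-1.03 to -1.02 without adrenal medulla or ganglion replicate 2 or 3), Col8a1 there (-1.03 to -1.02 without adrenal medulla replicate 3 or 4), Col4a5 in carotid body over adrenal medulla (1.01 without carotid body replicate 1 or 3), Col6a6 in carotid body over both tissues (1.00 to 1.08 with array weights or without carotid body replicate 1, and over adrenal medulla also without adrenal medulla replicate 2), and, with repeated quantile normalisation, Lamb1 and Nid1 over ganglion (1.15 and 1.05). In the main fit Nid1 over ganglion was 0.72 and Lamb1 over ganglion 0.90. The others lay near the 2-fold threshold, and the cause was not tested. Leaving out each array gave 18 to 20 genes higher in the carotid body than in the adrenal medulla, 19 to 20 higher than in ganglion, and 4 higher with 5 to 8 lower in adrenal medulla than in ganglion. Class medians moved by more than their spread between pools in these cases. With dim genes removed, which leaves out genes under the bound in every tissue, fibrillar medians were 1.08, 1.16 and -0.43 (for carotid body against adrenal medulla, carotid body against ganglion and adrenal medulla against ganglion), the basement membrane median of adrenal medulla minus ganglion 0.14, and those of the other collagens 1.23 and 0.84 for the carotid body comparisons. With array medians set equal, fibrillar medians were 0.38 against adrenal medulla and -0.0820 for adrenal medulla minus ganglion (1 gene lower in place of 2), the basement membrane median of adrenal medulla minus ganglion 0.15, and those of the other collagens 0.30, 0.27 and 0.0052. That scaling moved the median of all genes for carotid body minus adrenal medulla from 0.05 to -0.10. With repeated quantile normalisation, the values were 0.38 and -0.0832 for fibrillar genes (1 lower), 1.10 and 0.22 for basement membrane genes (carotid body minus ganglion, adrenal medulla minus ganglion), and 0.30 and 0.0447 for the other collagens (carotid body minus adrenal medulla, adrenal medulla minus ganglion). With array weights, the other collagens gave 0.50 for carotid body minus adrenal medulla and the basement membrane genes 0.0316 for adrenal medulla minus ganglion. Leaving out each array moved the fibrillar count lower in adrenal medulla than in ganglion from 1 (without adrenal medulla replicate 1 or 4) to 3 (without adrenal medulla replicate 2 or 3 or ganglion replicate 2), its median from -0.22 to -0.16, the basement membrane median from 0.0272 to 0.11, and the medians of the other collagens from 0.41 to 0.49 against adrenal medulla and from 0.30 to 0.42 against ganglion. Same-numbered pools of different tissues showed little common deviation over all genes (1 of 10 pairs with r over 0.1, range -0.17 to 0.25). With so few arrays per tissue, this cannot show whether pools of the same number shared animals or a batch. With the replicate block, 18 genes were higher in the carotid body than in the adrenal medulla, 19 than in ganglion, and 4 higher and 6 lower in adrenal medulla than in ganglion. Signal near background limits what could be seen for the 13 genes under the bound in all tissues.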
